A study of Mus musculus with 30 samples.

Results

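The adenylyl cyclases examined here are the 9 genes Adcy1 to Adcy9, which encode the membrane-bound enzymes that make cyclic AMP. They are 9 of the 41128 genes in the count tables of aorta and kidney. The members were taken by name, but the family was chosen by measured values: Adcy1 was known to be much higher in the aortae of knockout (KO) mice than of wild-type (WT) mice. The aortic difference of Adcy1 between the genotypes is therefore given as a description, with no test, and tests are given for its other comparisons and for the other members.

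Adenylyl cyclases convert ATP to cyclic AMP when a receptor activates the stimulatory G protein Gs, and cyclic AMP acts on protein kinase A and the Epac exchange factors until phosphodiesterases break it down. In vascular smooth muscle cyclic AMP is a relaxing signal, and in kidney tubules it carries the signals of vasopressin and parathyroid hormone. The isoforms differ in their control. Adcy1 and Adcy8 are stimulated by Ca2+ with calmodulin and are best known from neurons, Adcy3 is also sensitive to Ca2+ with calmodulin, Adcy2, Adcy4 and Adcy7 are stimulated by G protein beta-gamma subunits, Adcy5 and Adcy6 are inhibited by Ca2+, and Adcy9 responds poorly to forskolin.

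RNA of single mice was sequenced from 14 aortae and 16 kidneys of mice with and without the epidermal growth factor receptor, Egfr, in vascular smooth muscle cells. KO mice were Egfr flox/flox and had Cre recombinase that tamoxifen activates, driven by the smooth muscle promoter Smmhc (Myh11), whereas WT mice had this Cre and no loxP sites, so that cells other than smooth muscle kept Egfr in both. The labels give the background as C57Bl6J, and the protocol describes floxed C57BL/6 mice mated to a C57BL/6N Cre line. All mice were male, received 1 mg tamoxifen per day for 5 days, and were fed from 6 weeks of age, 7 days after tamoxifen, with standard fat diet (SFD) or high fat diet (HFD) for 18 weeks. The aortae were from 3 WT-SFD, 4 WT-HFD, 3 KO-SFD and 4 KO-HFD mice, and the kidneys from 4 mice of each group. 3 mice, 1 each of WT-SFD, KO-SFD and KO-HFD, gave both organs, so the kidneys are not wholly separate from the aortae in which Adcy1 was noticed. The libraries held 6403699 to 13052870 counted fragments in the aorta (median 8998366) and 16354880 to 28331314 in the kidney (median 19544128). Levels are FPM, fragments per 1000000 counted fragments after TMM scaling, and are given per kilobase of annotated exon where genes are compared with each other. A gene is called where edgeR, with p adjusted over every gene tested in the organ, gave under 0.05.

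Egfr itself, at chr11:16752203-16918158 of GRCm38, was examined first as a check of the labels. In the aorta it was 46.7, 39.5 and 54.3 FPM in WT-SFD and 65.1, 57, 51.2 and 57 FPM in WT-HFD mice. It was 26.8, 35.5 and 28 FPM in KO-SFD and 27.5, 40.6, 39.7 and 33.4 FPM in KO-HFD mice. On each diet every KO aorta was below every WT aorta, and over both diets the log2 fold change was -0.67 (SE 0.109, edgeR adjusted p = 0.0132). In the kidney Egfr was 36.9 to 58.4 FPM in WT and 40.5 to 60.8 FPM in KO mice, and its log2 fold change was -0.00 (SE 0.0935, edgeR adjusted p = 0.998).

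The labelled organs carried their defining markers. The smooth muscle markers summed to 9791 to 17666 FPM in the aorta, with Acta2 the most abundant, and to 108 to 159.8 FPM in the kidney. Of the 6 smooth muscle markers, Tagln and Cnn1 had no count in any library and were not analysed here. In the kidney the proximal tubule markers, led by the phosphate transporter Slc34a1, summed to 7827 to 14006 FPM, against 1.5 to 9.38 FPM in the aorta. In bulk tissue, fewer cells of a type and less RNA per cell cannot be told apart.

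4 aortae stood apart in adipocyte markers. The sum of the 8 markers was 2732 FPM in WT-SFD aorta 1, 2042 FPM in WT-SFD aorta 2, 1698 FPM in KO-SFD aorta 1 and 597 FPM in KO-SFD aorta 2, numbered in the order in which values are listed here. In the other 10 aortae it was 38.4 to 143 FPM. Fabp4, the fatty acid binding protein of adipocytes, was the most abundant of the 8 in every aorta, and 1 of the 8 was at 0 in a single WT-HFD library. Both genotypes on SFD held such libraries and neither group on HFD did, so the diet differences of Adcy1, Adcy3 and Adcy7 in the aorta are also given without these 4 libraries. Cardiac muscle markers, led by Myh6, summed to 371 FPM in WT-SFD aorta 2 and 60.2 FPM in KO-SFD aorta 2, and to 6.28 to 19.8 FPM in the other 12 aortae.

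Adcy1, a Ca2+ and calmodulin-stimulated isoform at chr11:7063489-7178506 on the plus strand of GRCm38, was near the bottom of the family in WT aortae and among its most abundant members in KO aortae. It was 4.64, 4.61 and 3.03 FPM in the aortae of WT-SFD mice and 8.36, 8.04, 7.19 and 6.27 FPM in those of WT-HFD mice. In KO-SFD aortae it was 198, 227 and 289 FPM, and in KO-HFD aortae 388, 242, 308 and 312 FPM. No KO aorta came near a WT aorta: on the log2(FPM + 0.5) scale the lowest KO library lay 4.48 above the highest WT library. The raw counts ran from 21 in a WT aorta to 3854 in a KO aorta.

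The group means of Adcy1 were 4.1 ± 0.921 FPM (SD, n = 3) in WT-SFD, 7.47 ± 0.94 FPM (n = 4) in WT-HFD, 238 ± 46.5 FPM (n = 3) in KO-SFD and 312 ± 59.7 FPM (n = 4) in KO-HFD aortae. KO exceeded WT by 57.5-fold on SFD (log2 fold change 5.84, SE 0.231) and by 41.7-fold on HFD (5.38, SE 0.191). The mean over both diets was 48.9-fold (5.61, SE 0.152). These values describe the difference by which the gene was chosen. Leaving out any 1 aorta kept the mean log2 fold change between 5.53 and 5.68, and without the 4 aortae rich in adipocyte markers it was 5.97. On SFD, where this leaves 1 aorta per genotype, it was then 6.57.

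**Figure D1:**
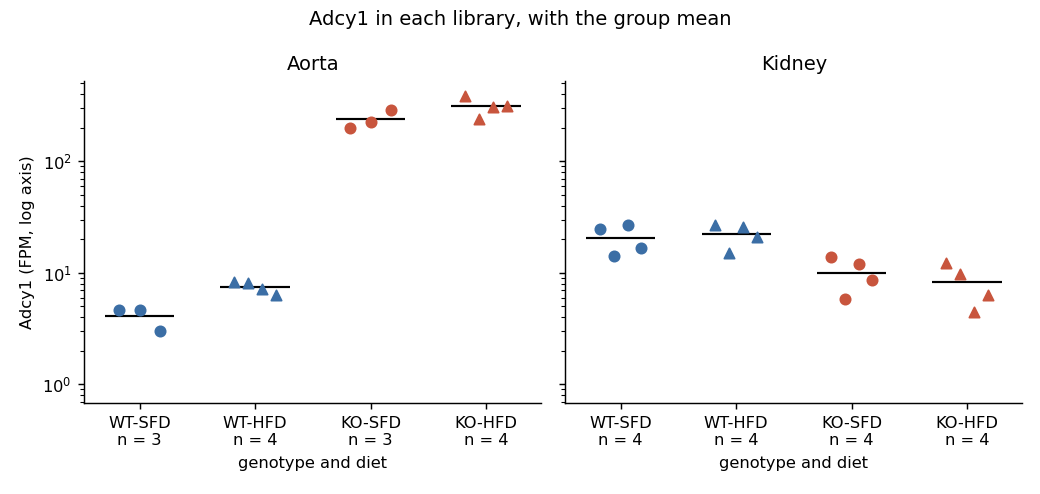
Adcy1 in FPM (log axis) in each aorta (left) and kidney (right), by genotype and diet. Each symbol is 1 mouse and each line the group mean, and the KO aortae lie at 198 to 388 FPM above WT aortae at 3.03 to 8.36 FPM, while the KO kidneys lie at 4.49 to 13.9 FPM below WT kidneys at 14.1 to 27 FPM.

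Such a separation was uncommon in the aorta. Every KO library was above every WT library for 27 of the 14796 genes tested (0.182%), Adcy1 included, and below for 13 genes (0.0879%). edgeR called 12 genes (0.0811%) for KO against WT on SFD, 12 genes (0.0811%) on HFD and 29 genes (0.196%) for the mean of both diets. As Adcy1 was chosen on this contrast, nothing is read from its place among them.

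The 5 genes with the pattern most like that of Adcy1 were those with the next largest gaps between the lowest KO and the highest WT aorta over all 14 libraries. They were Gm10600, Gm17167, Gm5859, Gm17081 and Gm13302, with gaps from 1.85 down to 0.96 on the log2 scale, each smaller than the 4.48 of Adcy1. Gm10600 was 5.92 to 9.96 FPM in WT (median 7.64) and 37.2 to 83 FPM in KO aortae (median 48). All 5 genes lie on chromosome 4, between 41893388 and 42242685, in a stretch of near-identical gene copies and pseudogenes. Reads from such copies may be assigned to the wrong copy, so the values of these 5 genes are uncertain.

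Adcy1 and Egfr lie on the same chromosome, with 9.69 Mb between their starts. KO mice differ from WT mice both in the deletion of Egfr in smooth muscle and in carrying the floxed Egfr allele with the chromosome 11 sequence inherited next to it, and the design cannot tell these apart. Chromosome 11 held 1348 of the 14796 genes tested in the aorta (9.11%) and 7 of the 29 genes called for the mean of both diets (24.1%). These 7 include Adcy1, which was chosen on this contrast, Egfr, the targeted gene, and Gm11983, which had no count in any WT aorta and was tested only through its counts in KO. Of the 27 genes with every KO aorta above every WT aorta, 4 were on chromosome 11 (14.8%, Adcy1 and Gm11983 included), and of the 13 with every KO aorta below, 1 was (7.69%). These counts were made after the values were seen and are given as a description.

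Of the other genes tested whose start lies within 500 kb of that of Adcy1, 3 of 4 were not called. Nacad, 466 kb away, was 24.9 to 38.8 FPM in WT and 26.8 to 44 FPM in KO aortae (log2 fold change 0.07, SE 0.0952, edgeR adjusted p = 0.888). Tbrg4 (-0.02, SE 0.2, adjusted p = 0.986) and Igfbp3, an insulin-like growth factor binding protein (-0.65, SE 0.453, adjusted p = 0.801), did not pass either. Gm11983, a predicted protein-coding gene whose start lies 228 kb from that of Adcy1, had no count in any of the 7 WT aortae and 88 counts over the 7 KO aortae, at 0.139 to 1.88 FPM. It was at least 27.9-fold higher in KO, against a floor of 3 counts over all WT libraries. It passed the filter on low counts only through the KO aortae, so its edgeR call is given no weight.

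Another 11 genes in this interval had counts in the aorta but were too low to be tested. Summed over the 7 libraries of each genotype, 7 of them had more counts in KO, 2 fewer and 2 the same number. The 2 with the largest excess in KO, named after their counts were seen, were Gm11985, with 0 counts in WT and 22 in KO aortae, and Ramp3. The largest deficit was that of Gm11977, with 47 and 36 counts. Ramp3, a receptor activity-modifying protein that joins the calcitonin receptor family, had 8 counts in WT and 53 in KO aortae. In the kidney none of the 5 neighbours tested within 500 kb was called, among them Nacad at 0.69 (SE 0.204, edgeR adjusted p = 0.819) and Ramp3 at -0.29 (SE 0.129, adjusted p = 0.834), and Gm11983 had no count in any kidney.

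Diet was compared within each genotype. In WT aortae Adcy1 was higher on HFD than on SFD, with no overlap between 3.03 to 4.64 FPM and 6.27 to 8.36 FPM. The difference was 1.81-fold (log2 fold change 0.86, SE 0.206) and did not pass the test (edgeR adjusted p = 0.0683), while DESeq2 called it (adjusted p = 0.0201). Over all alternatives the adjusted p ran from 0.0201 to 0.569. How many of all genes separated the diets in WT aortae was not counted, and 2520 of 14796 had an unadjusted edgeR p under 0.05. The smooth muscle markers also separated the diets in WT aortae, at 9791 to 15140.5 FPM on SFD and 15584 to 16342 FPM on HFD. So did 2 sparse lists of the 17 examined. Proximal tubule markers were 1.5 to 2.6 FPM on SFD and 3.26 to 6.65 FPM on HFD, and adrenal markers 5.02 to 6.55 FPM and 3.12 to 4.9 FPM. Of the 3 WT-SFD aortae 2 were among those rich in adipocyte markers. Without the 4 marker-rich aortae the log2 fold change of Adcy1 was 1.30, with 1 WT-SFD library left, which is assumed to vary like the other groups. An adipocyte covariate was also among the alternatives run. Beyond these fits the part of adipocyte RNA in the diet difference was not tested, nor was that of smooth muscle RNA. In KO aortae the diets overlapped (log2 fold change 0.39, SE 0.169, edgeR adjusted p = 0.595), and the value without the 4 marker-rich aortae was 0.11. The diet effect in KO minus that in WT was -0.46 (SE 0.264, edgeR adjusted p = 0.998), and -1.19 without the 4, where WT-SFD and KO-SFD have 1 library each.

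In the aorta edgeR called 0 of 8 members for diet in WT, in KO and for the interaction, in each of which it called 0% of all genes tested. At an unadjusted p under 0.05 the counts of members were 1, 1 and 0, the first 2 being Adcy1, beside 2520, 1162 and 646 of all genes. DESeq2 called 1 member for diet in WT, Adcy1, among 666 genes (4.50%), and 0 members in the other 2 comparisons, where it called 8 and 2 genes (0.0541% and 0.0135%).

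In the kidney Adcy1 went the other way. It was 24.9, 14.1, 27 and 16.8 FPM in WT-SFD and 26.8, 15.2, 25.6 and 21.1 FPM in WT-HFD kidneys. It was 13.9, 5.77, 12 and 8.63 FPM in KO-SFD and 12.3, 9.82, 4.49 and 6.34 FPM in KO-HFD kidneys. Every KO kidney was below every WT kidney, but the highest KO (13.9 FPM) and the lowest WT (14.1 FPM) nearly touched, a gap of 0.02 on the log2 scale.

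The mean over both diets was 0.426-fold in KO against WT kidneys (log2 fold change -1.23, SE 0.215). It did not pass the edgeR test (adjusted p = 0.11) and passed that of DESeq2 (adjusted p = 2.0e-04). Over the other settings run the adjusted p ran from 2.0e-04 to 0.654, the highest without the 3 kidneys of mice that also gave an aorta, where the log2 fold change was -1.27. By diet the log2 fold change was -1.04 on SFD (SE 0.301, edgeR adjusted p = 0.432) and -1.42 on HFD (SE 0.307, adjusted p = 1).

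Every KO kidney was below every WT kidney for 3 of the 15034 genes tested (0.0200%), Camk2b, Paip1 and Adcy1, and above for 0 genes (0%). Camk2b, which encodes the beta subunit of Ca2+ and calmodulin-dependent protein kinase II, was 2.15 to 8.13 FPM in WT and 0.0511 to 0.443 FPM in KO kidneys (log2 fold change -4.06, SE 0.423). Its counts were 48 to 150 in WT and 1 to 8 in KO kidneys, so that it passed the filter on low counts through the WT kidneys, and no p is given. It lies 1.09 Mb from Adcy1 on chromosome 11. In the aorta Camk2b was 12 to 20.1 FPM in WT and 12.6 to 25.1 FPM in KO mice and was not called (0.29, SE 0.154, adjusted p = 0.723). It is named after its values were seen, and the chromosome 11 sequence that KO mice carry beside the floxed allele cannot be told apart from the deletion here either.

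Of the 17 lists of cell markers examined, 3 had sums that separated the genotypes in the kidneys on SFD. The podocyte markers, led by Podxl, summed to 201, 175, 164 and 224 FPM in WT-SFD and to 152, 129, 144 and 148 FPM in KO-SFD kidneys. On SFD the distal tubule markers, led by the sodium-chloride cotransporter Slc12a3, were 620.4 to 795 FPM in WT and 462 to 581 FPM in KO, and those of the thick ascending limb, led by Umod, 5006 to 6831 FPM and 6899.7 to 7459 FPM. In this comparison 1307 of all 15034 genes tested had an unadjusted edgeR p under 0.05, and how many of them separated the genotypes was not counted. On HFD the genotypes overlapped in these 3 sums, with podocyte markers at 165 to 235 FPM in WT and 147 to 226 FPM in KO. No gene of any marker list was called for KO against WT over both diets in either organ, none of these 3 lists had a gene at 0 in a kidney, and their part in the difference of Adcy1 was not tested.

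The kidney diet comparisons left Adcy1 with overlapping groups. The log2 fold change of HFD against SFD was 0.09 in WT (SE 0.286, edgeR adjusted p = 0.993) and -0.29 in KO (SE 0.32, adjusted p = 0.696), with an interaction of -0.38 (SE 0.43, adjusted p = 1).

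The levels per kilobase set Adcy1 within its family. In WT aortae Adcy5, a Ca2+-inhibited isoform at chr16:35154877-35305738, was highest at 87.5 ± 19.2 FPM per kb (SD, n = 7), above all other members in every library. Adcy6 (20.5 ± 2.99), also Ca2+-inhibited, overlapped with Adcy7 (15.8 ± 3.76), and Adcy4 (5.46 ± 1.19) overlapped with Adcy9 (7.93 ± 1.31) above it and Adcy3 (5.4 ± 1.85) below it. Adcy7 and Adcy9 did not overlap, nor did Adcy3 and Adcy1. Adcy1 (0.481 ± 0.159) overlapped with Adcy2 (0.367 ± 0.173), and Adcy8, the other Ca2+ and calmodulin-stimulated isoform, was lowest at 0.0262 ± 0.028 FPM per kb. Adcy1 was thus the seventh of the family in WT aortae.

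In KO aortae Adcy1 reached 22.4 ± 5.12 FPM per kb (n = 7), between Adcy5 (91 ± 13.2) and Adcy6 (20.5 ± 2.46). Its order relative to Adcy6 depends on the length used: with the longest annotated transcript in place of all exons Adcy6 was 23 and Adcy1 22.9 FPM per kb. Adcy1 made up 0.344% of the summed level of the 9 genes in WT aortae (0.145% to 0.562%) and 13.2% in KO aortae (10.2% to 15.6%). The sum itself was 144 ± 20.4 FPM per kb in WT and 168 ± 21.5 FPM per kb in KO aortae, and without Adcy1 it was 143 ± 20.4 and 146 ± 17.2, a difference smaller than the spread between mice.

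**Figure D2:**
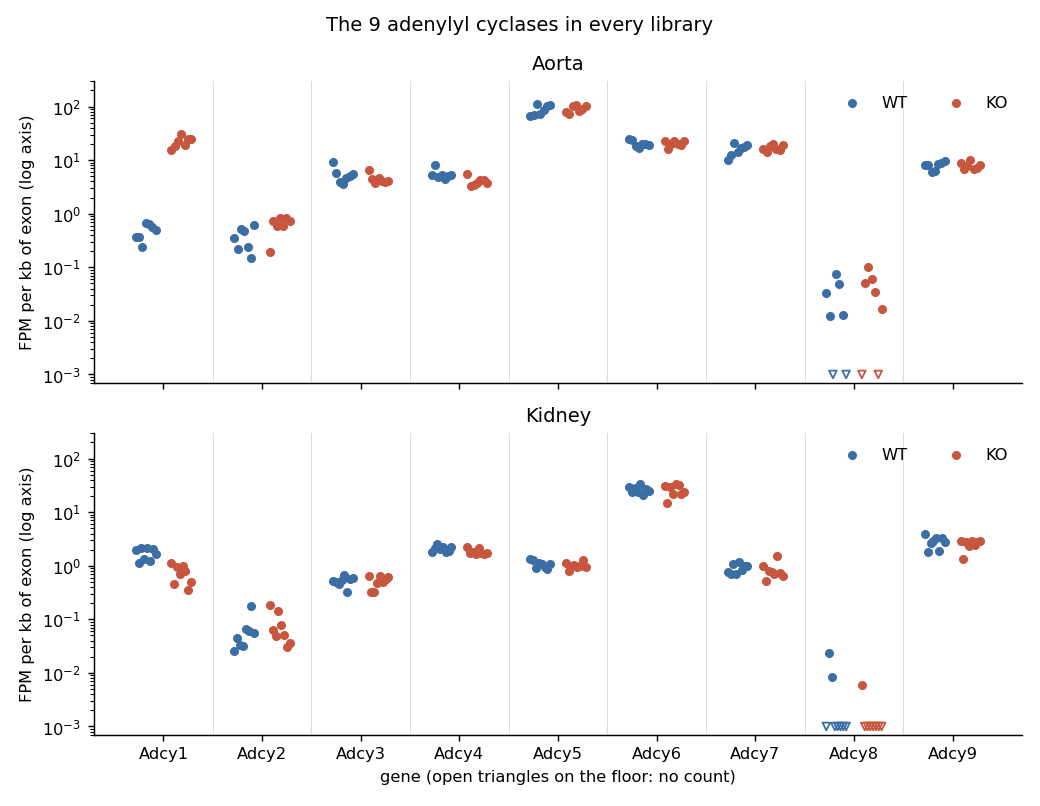
Level of the 9 genes in FPM per kb of exon (log axis) in every aorta (top) and kidney (bottom), 1 point per mouse, WT left of KO for each gene, with open triangles on the floor for libraries with no count. In the aorta Adcy1 moves from beside Adcy2 in WT to beside Adcy6 in KO, and Adcy5 stays highest in both.

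The kidney had another order. Adcy6, at chr15:98589973-98610076, was highest at 26.7 ± 4.04 FPM per kb in WT kidneys (n = 8) and stood above all other members in every library. Adcy9 (2.8 ± 0.74), Adcy4 (2.08 ± 0.251), Adcy1 (1.71 ± 0.43), Adcy5 (1.08 ± 0.171) and Adcy7 (0.901 ± 0.188) followed, each but Adcy7 overlapping with the next. Adcy3 was 0.518 ± 0.0992, Adcy2 0.0617 ± 0.0483 and Adcy8 0.00394 ± 0.00829 FPM per kb. In KO kidneys Adcy1 was 0.731 ± 0.274 FPM per kb and came sixth by mean, below Adcy5 (1.02 ± 0.142) and Adcy7 (0.843 ± 0.319), and overlapped with both. Its share of the family sum was 4.72% in WT (3.56% to 5.58%) and 2.14% in KO kidneys (1.22% to 2.81%), ranges that did not overlap, while the sum was 35.9 ± 5.26 FPM per kb in WT and 33.7 ± 7.34 in KO.

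The organs were sequenced at different places and never fitted together, so levels in aorta and kidney stand side by side without a test. In WT mice Adcy5 had 87.5 FPM per kb in the aorta and 1.08 in the kidney, and Adcy1 had 0.481 and 1.71. Adcy6 had the most similar level in the organs by ratio, with 20.5 in the aorta and 26.7 in the kidney.

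**Figure D3:**
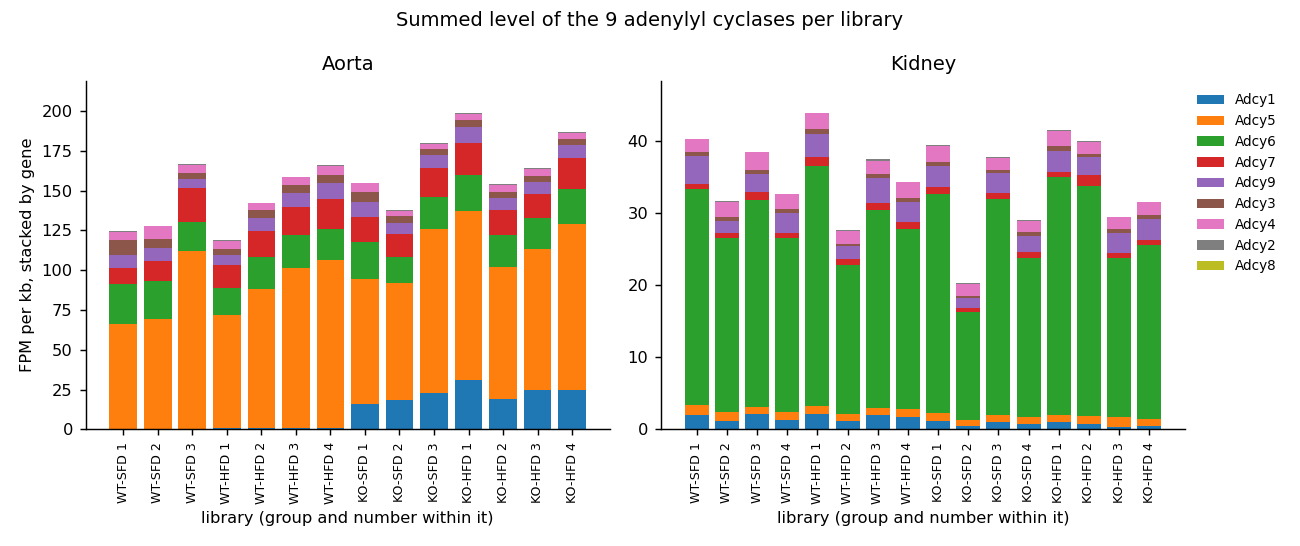
Summed level of the 9 genes in FPM per kb, stacked by gene, 1 bar per library, in aorta (left) and kidney (right), each with its own axis from 0. Adcy5 forms most of the aortic bars and Adcy6 most of the kidney bars, and the layer of Adcy1 is visible in every KO aorta (10.2% to 15.6% of the bar) and is at most 0.562% of the bar in WT aortae.

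Of the other members, none was called between the genotypes in the aorta. 8 of the 9 passed the filter on low counts there, Adcy8 being too low, and among the 7 besides Adcy1 edgeR called 0 on SFD, on HFD and for the mean of both diets, with backgrounds of 0.0811%, 0.0811% and 0.196% of all genes. At an unadjusted p under 0.05 there were 1, 1 and 2 of them (Adcy4, then Adcy2, then both), beside 967, 792 and 1061 of all 14796 genes. DESeq2 called 0 of them in each, beside 21, 40 and 56 of all genes. Their median log2 fold change for the mean of both diets was 0.02, beside -0.01 over all genes tested.

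Among the isoforms stimulated by beta-gamma subunits, Adcy4, at chr14:55769057-55784095, was 24.4, 37.7 and 23.1 FPM in WT-SFD and 24.6, 21, 23.2 and 24.4 FPM in WT-HFD aortae. It was 26, 15.3 and 15.9 FPM in KO-SFD and 17.7, 20.1, 20 and 17.8 FPM in KO-HFD aortae. On SFD the genotypes overlapped. On HFD they did not, with a log2 fold change of -0.30 (SE 0.179, edgeR adjusted p = 0.999). How many of all genes separated the genotypes on HFD was not counted. For the mean of both diets the log2 fold change of Adcy4 was -0.44 (SE 0.137, edgeR adjusted p = 0.494).

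Adcy2, at chr13:68620043-68999541, was 1.5, 0.923 and 2.17 FPM in WT-SFD and 2.04, 1, 0.626 and 2.56 FPM in WT-HFD aortae. In KO mice it was 0.804, 3.06 and 2.45 FPM on SFD and 3.55, 2.44, 3.52 and 3.15 FPM on HFD. The genotypes overlapped on both diets, and the log2 fold change was 0.78 (SE 0.334, edgeR adjusted p = 0.682) on counts of 6 to 44 per library, which limits what could be detected. Adcy7, at chr8:88272403-88329962, was 68.5 to 139.9 FPM in WT and 96.7 to 135 FPM in KO aortae (0.12, SE 0.137, adjusted p = 0.877).

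The Ca2+-inhibited pair that formed most of the aortic sum had overlapping genotypes. Adcy5 was 472 to 807 FPM in WT (median 628) and 532 to 762 FPM in KO aortae (median 636), a log2 fold change of 0.05 (SE 0.138, edgeR adjusted p = 0.952). Adcy6 was 114 to 171 FPM in WT and 109 to 156 FPM in KO aortae (-0.02, SE 0.0951, adjusted p = 0.967). Adcy9, at chr16:4287529-4420498, was 31 to 49.7 FPM in WT and 35.1 to 51.2 FPM in KO aortae (0.02, SE 0.117, adjusted p = 0.984).

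Adcy3, at chr12:4133103-4213525, was highest in 3 of the 4 aortae rich in adipocyte markers, while the fourth, KO-SFD aorta 2, was within the range of the other 10. It was 57.5, 36.4 and 24.3 FPM in WT-SFD aortae, where the first 2 are the marker-rich libraries, and 22.7 to 34.3 FPM in WT-HFD aortae. In KO-SFD aortae it was 40.5, 27.3 and 23 FPM, the first 2 being the marker-rich libraries, and in KO-HFD aortae 24.2 to 28.7 FPM. KO against WT gave -0.28 (SE 0.172, edgeR adjusted p = 0.764). HFD against SFD in WT gave -0.42 (SE 0.242, adjusted p = 0.407) with all aortae. It was 0.29 without the 4 marker-rich ones, where WT-SFD aorta 3 alone stands for its group. Over all alternatives the adjusted p of this difference ran from 0.0574 to 0.97. Adcy7 had its lowest values, 68.5 and 83 FPM, in the marker-rich WT-SFD aortae 1 and 2, while the marker-rich KO-SFD aortae 1 and 2 were at 108 and 96.7 FPM and the other 10 aortae at 96.7 to 139.9 FPM. The diet difference of Adcy7 in WT was 0.23 (SE 0.195, adjusted p = 0.596) with all aortae. Without the 4 it was -0.30, resting on WT-SFD aorta 3 alone, which had the highest Adcy7 of all aortae (139.9 FPM). Over all alternatives its adjusted p ran from 0.0176 to 0.973. An adipocyte covariate was also among the alternatives run, and beyond these fits the part of adipocyte RNA in either value was not tested.

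**Figure D4:**
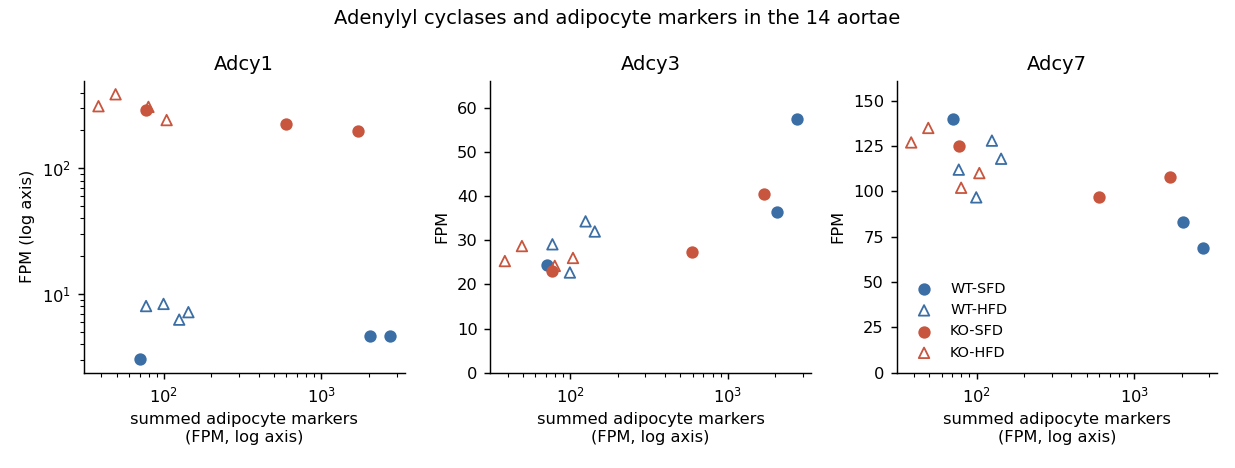
Level in FPM of Adcy1 (log axis), Adcy3 and Adcy7 (linear axes from 0) in the 14 aortae against the sum of the 8 adipocyte markers in FPM (log axis), filled circles for SFD and open triangles for HFD. Adcy3 is highest (57.5 FPM) and Adcy7 lowest (68.5 FPM) in the library with the highest marker sum (2732 FPM). Adcy1, chosen by its difference between KO and WT aortae, is drawn for reference.

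Adcy8, at chr15:64697084-64922296, was 0 to 0.816 FPM in the aorta and was at 0 in 4 of the 14 libraries. In the kidney it had no more than 3 counts in any library. Those kidney counts are at or under the limit of 3 that a count of 0 allows. In the aorta its counts were 0 to 9 per library, with WT at 0 to 6, and it was too low to be tested, so no fold is given for either organ.

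For the overlap of gene models, 22.1% of the exon bases of Adcy3 are shared with Cenpo on the other strand, 8.92% of those of Adcy6 with the antisense gene Gm29331 and 4.49% of those of Adcy2 with Gm35161. The strand setting of the counting was not given in the sources used here, and without strand, reads of the partners cannot be told apart. The exons of Adcy1 overlap no other annotated gene.

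In the kidney 7 of the 9 members passed the filter, Adcy2 and Adcy8 being too low. edgeR called 0 of 7 for KO against WT on SFD (0.0133% of all genes, 2 genes), on HFD (0%) and for the mean of both diets (0.0133%). At an unadjusted p under 0.05 there was 1 member in each, Adcy1, beside 1307, 263 and 892 of all 15034 genes. DESeq2 called 0, 0 and 1 member (Adcy1), beside 26, 1 and 15 of all genes. All 7 members had a negative log2 fold change for the mean of both diets, from -1.23 to -0.02 with a median of -0.09, beside 0.00 over all genes tested. By diet, all 7 were negative on SFD (median -0.22), while on HFD 4 were negative and 3 positive (median -0.02).

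Adcy6, the main kidney isoform, was 140.0 to 227 FPM in WT and 102 to 224 FPM in KO kidneys (log2 fold change -0.03, SE 0.143, edgeR adjusted p = 0.976). Adcy9 was 9.24 to 20.6 FPM in WT and 6.84 to 15.4 FPM in KO kidneys (-0.14, SE 0.173, adjusted p = 0.9). Adcy4 was 8.32 to 11.9 FPM in WT and 7.59 to 10.3 FPM in KO kidneys (-0.20, SE 0.0989, adjusted p = 0.834). The genotypes overlapped for each of them. Adcy5 (-0.08, SE 0.11), Adcy7 (-0.09, SE 0.19) and Adcy3 (-0.02, SE 0.163) had edgeR adjusted p values of 0.911, 0.947 and 0.987. KO-SFD kidney 2 had the lowest value of all 16 for Adcy6 (102 FPM), Adcy9 (6.84 FPM), Adcy5 (5.71 FPM) and Adcy7 (3.45 FPM), and without it the log2 fold change of Adcy1 was -1.13.

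Diet called none of the members in the kidney. edgeR called 0 of 7 for HFD against SFD in WT, where it called 145 genes (0.964%), 0 of 7 in KO, where it called 360 (2.39%), and 0 of 7 for the interaction (0%). No member had an unadjusted p under 0.05 in these 3 comparisons, and DESeq2 called 0 in each. The largest diet difference was that of Adcy3 in KO kidneys, at 0.37 (SE 0.233, edgeR adjusted p = 0.462).

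**Figure D5:**
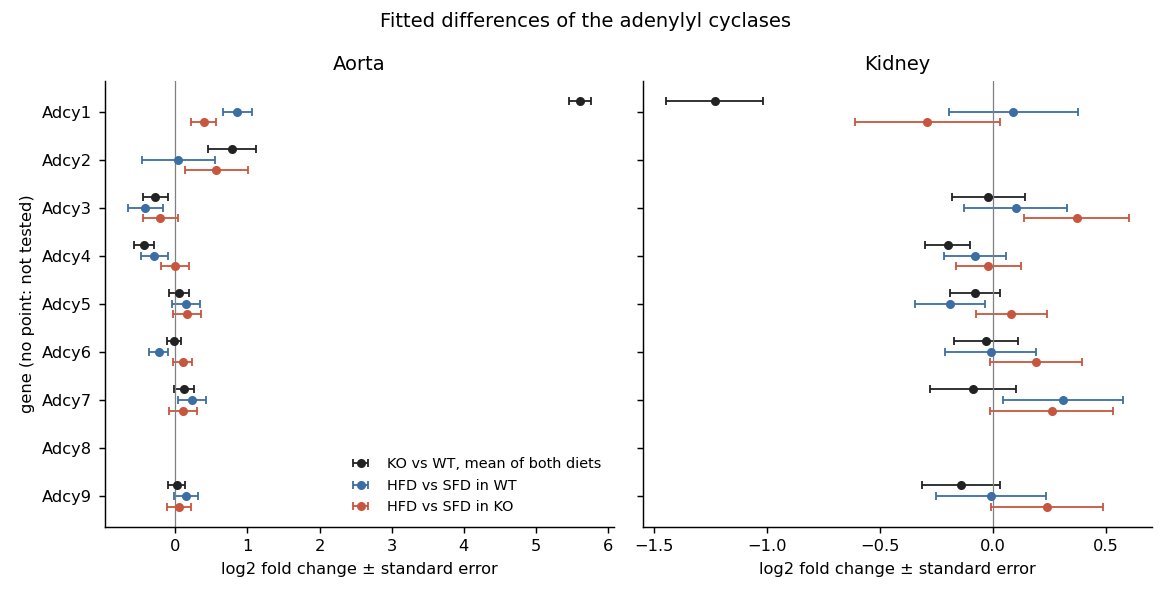
Log2 fold change with its standard error (x axis) of each member (y axis) in the aorta (left) and kidney (right), on separate scales, for KO against WT over both diets and for the diet difference within each genotype. Adcy1 stands apart from the other members for KO against WT, at 5.61 in the left panel and -1.23 in the right.

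The other genes of the cyclic AMP pathway were taken as 6 lists of 86 genes in all: receptors coupled to Gs with their partner proteins, G protein alpha subunits, regulators, phosphodiesterases, effectors and transcription factors with their targets. 69 of them were tested in each organ. Vipr1, Pth1r, Avpr2, Gnai2, Pde4a and Prkar2a had no count in either organ and were not analysed here. Among these are the receptors of vasopressin (Avpr2) and parathyroid hormone (Pth1r). For KO against WT over both diets edgeR called 0 of 69 in the aorta, beside 0.196% of all genes, and 0 of 69 in the kidney, beside 0.0133%. DESeq2 also called 0 in both. At an unadjusted p under 0.05 there were 2 in the aorta, beside 1061 of all 14796 genes, and 6 in the kidney, beside 892 of all 15034.

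Upstream of the cyclases, 0 of 11 receptors were called in the aorta, 5 with a positive and 6 with a negative value. The prostacyclin receptor Ptgir had 0.36 (SE 0.165, edgeR adjusted p = 0.69), and the most abundant receptor, Calcrl, which binds adrenomedullin and CGRP, had 0.02 (SE 0.115, adjusted p = 0.983). All 6 G protein alpha subunits tested had a negative log2 fold change for the mean of both diets, and none was called. Their median was -0.14, beside -0.01 over all genes tested, and on each diet alone 5 were negative and 1 positive. Among them the inhibitory subunits Gnai3 and Gnai1 had -0.21 (SE 0.0972, adjusted p = 0.69) and -0.04 (SE 0.107, adjusted p = 0.953). Calm2, a gene for calmodulin, through which Ca2+ stimulates Adcy1, had 0.07 (SE 0.104, adjusted p = 0.896).

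Downstream, 0 of 12 phosphodiesterases were called in the aorta (median -0.16, beside -0.01 over all genes tested). Pde3a, the most abundant at a mean of 348 FPM, had 0.10 (SE 0.112, edgeR adjusted p = 0.874), and Pde2a, a cyclic GMP-stimulated enzyme, had -0.98 (SE 0.506, adjusted p = 0.715). The mean of Pde2a was 22.9 FPM in WT-SFD aortae (SD 21.1) and 3.61 to 9.44 FPM in the other groups. Of 21 effectors 0 were called. The protein kinase A subunit Prkar1b had -0.82 (SE 0.447, adjusted p = 0.733) and the anchoring protein Akap13 0.06 (SE 0.0892, adjusted p = 0.897). Prkar1b had a mean of 3.11 FPM in WT-SFD aortae (SD 2.92) and 0.931 to 1.21 FPM in the other groups. Of 14 transcription factors and targets 0 were called, with Nr4a3 at 0.32 (SE 0.231, adjusted p = 0.816) and Dusp1 at 0.11 (SE 0.255, adjusted p = 0.948).

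In the kidney, 0 of 13 receptors were called for KO against WT, Adcyap1r1, the PACAP receptor, having 0.36 (SE 0.162, edgeR adjusted p = 0.834). Gnai1 had -0.19 (SE 0.0719, adjusted p = 0.829) and Calm2 0.17 (SE 0.0614, adjusted p = 0.822). The phosphodiesterase Pde8b had 0.22 (SE 0.154, adjusted p = 0.853) and the most abundant one, Pde4c, -0.08 (SE 0.0878, adjusted p = 0.89). Per1, a clock gene that responds to cyclic AMP, had the largest value of those named, 0.77 (SE 0.306, adjusted p = 0.829).

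Diet was the comparison with the most pathway genes near the threshold, in WT aortae. There edgeR called 0 of 69, with 18 at an unadjusted p under 0.05, beside 2520 of all 14796 genes, and DESeq2 called 8, beside 666 of all genes (4.50%). The 6 lower on HFD by DESeq2 were the beta-3 adrenergic receptor Adrb3, Pde3b, Pde8a, Ppargc1a, Prkaca and Prkar2b, and the 2 higher were Calm3 and Crtc3. By edgeR, Adrb3 had -3.95 (SE 1.02, adjusted p = 0.0711), Prkar2b -3.65 (SE 0.843, adjusted p = 0.0674), Pde3b -2.09 (SE 0.497, adjusted p = 0.0683), Ppargc1a -1.95 (SE 0.458, adjusted p = 0.0674) and Calm3 0.42 (SE 0.107, adjusted p = 0.0711). Adrb3, Pde3b, Prkar2b and Ppargc1a are well known from adipocytes, and the median log2 difference of the 8 adipocyte markers themselves was -3.64 here, with 2 of the 3 WT-SFD aortae rich in them. The part of adipocyte RNA in these values was not tested.

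In KO aortae Prkar2b had -3.26 (SE 0.842, edgeR adjusted p = 0.526) and Adrb3 -2.90 (SE 1.07, adjusted p = 0.558). In the kidney edgeR called 0 of 69 pathway genes for diet in WT and in KO, beside 0.964% and 2.39% of all genes. At an unadjusted p under 0.05 there were 8 and 7 of them, beside 1210 and 2427 of all genes, and DESeq2 called 0 in both, beside 263 and 695. In WT kidneys Rgs2, which restrains G protein signalling, had 0.43 (SE 0.13, adjusted p = 0.197) and Akap7 0.39 (SE 0.117, adjusted p = 0.207). In KO kidneys Adrb1 had 0.53 (SE 0.169, adjusted p = 0.127) and Pde8a 0.31 (SE 0.107, adjusted p = 0.16).

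Markers of other cells were read beside Adcy1 in the aorta. The neuron markers, of which Stmn2 was the most abundant on average, summed to 4.04 to 119.7 FPM in WT (median 8.47) and 4.62 to 14.7 FPM in KO aortae (median 6.97). 1 of the 9 neuron markers, Tubb3, had no count in any library. The Schwann cell markers summed to 13.2 to 54 FPM in WT and 10.8 to 19.7 FPM in KO aortae, and the endothelial markers to 682 to 909.9 FPM and 642 to 853 FPM. WT-SFD aorta 1 had the highest neuron (119.7 FPM) and Schwann cell (54 FPM) sums. The smooth muscle markers were 9791 to 16342 FPM in WT and 10522 to 17666 FPM in KO aortae. None of these sums separated the genotypes over both diets or on either diet. The leucocyte markers, led by Ptprc, summed to 17.6, 17.7 and 18.3 FPM in WT-SFD and to 71.3, 24.9 and 36.7 FPM in KO-SFD aortae, and so were higher in every KO aorta on SFD. On HFD they overlapped, at 13.3 to 41.6 FPM in WT and 10.3 to 46.8 FPM in KO aortae. Of the 5 leucocyte markers 3 had counts, and Cd3e had none in any aorta. The proximal tubule markers, below 10 FPM in sum in every aorta, were higher in KO on SFD (2.93 to 9.38 against 1.5 to 2.6 FPM) and lower in KO on HFD (1.71 to 2.74 against 3.26 to 6.65 FPM). Cubn, their most abundant gene on average but not in each library, was at 0.136 to 3.21 FPM. These were among the 17 marker lists examined, and the part of these cells in the level of Adcy1 was not tested.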

How the data were processed

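Per the labels and methods, reads were trimmed (with cutadapt for the aortae, and per the methods by the sequencing company for the kidneys, for which the labels also list cutadapt), and the authors aligned them to mm10 (GRCm38) with TopHat and counted fragments per gene with featureCounts. The values used are the raw counts that the authors deposited, 1 column per mouse (30 columns, all used). Genes were annotated with BiomaRt per the methods. The strand setting of the counting is not given in the sources used here. Aortae and kidneys were sequenced at different places and fitted separately.

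Counts were scaled with TMM, filtered with filterByExpr (14796 genes in the aorta, 15034 in the kidney) and fitted with the quasi-likelihood functions of edgeR 4.0.16 in R 4.3.3, with 1 coefficient per genotype and diet group and Benjamini-Hochberg adjustment over all genes. DESeq2 1.42.0, RLE factors, library totals, no filter, the legacy test, only the groups compared, a threshold of 0.001, an adipocyte covariate, another gene length and leaving out each library were alternatives. Leaving out marker-rich aortae or kidneys of shared mice and a permutation test (not used) were added after seeing the data. Scripts were tested on simulated data. Positions and lengths came from GENCODE vM21, in which 40254 of 41128 gene identifiers were found. Figures used matplotlib 3.10.9 in Python 3.11.15.

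Members and lists were chosen with earlier results of these data known. Named genes were the members, Egfr, up to 4 genes per pathway list and comparison (those called, or otherwise the smallest p and the highest mean), the 5 genes most like Adcy1, tested genes within 500 kb, and markers. Replicates were single mice, and p values measure the spread between them. Some results are not reported here.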

Additional observations from a re-analysis of the deposited data

Results flagged for a closer look

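In groups of 4 libraries the highest or lowest value was compared with the range of its group (Dixon's criterion at 95%). 46 groups with at least 10 counts of the gene in a library were examined and 4 values stood apart, where chance gives about 1 in 20 groups. In the kidney, Adcy2 was 0.739 FPM in WT-HFD kidney 3, beside 0.239 to 0.278 FPM in the rest of its group, and Adcy5 was 9.18 FPM in KO-HFD kidney 3, beside 6.84 to 7.22 FPM. Adcy7 was 7.13 FPM in WT-SFD kidney 3, beside 4.65 to 5.04 FPM, and 10.5 FPM in KO-HFD kidney 2, beside 4.37 to 5 FPM. The leucocyte markers, led by Ptprc, summed to 54.7 FPM in KO-HFD kidney 2 and to 14.6 to 22.5 FPM in the rest of its group, and to 31.8 FPM in WT-SFD kidney 3 and 14 to 16.8 FPM in the rest of its group. Their part in the values of Adcy7 was not tested.

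The genotypes stood in opposite order in the organs: Adcy1 was higher in every KO than in every WT aorta (log2 fold change 5.61) and lower in every KO than in every WT kidney (-1.23). The difference between the organs was not tested, since they were sequenced at different places.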

How the results depend on the processing

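The direction of Adcy1 for KO against WT was the same in aorta and kidney under all alternatives run. In the aorta the log2 fold change on SFD was 6.16 with library totals and 6.57 without the 4 aortae rich in adipocyte markers, and without these the mean of both diets was 5.97. For HFD against SFD in WT aortae Adcy1 passed the threshold with DESeq2 (0.87, adjusted p = 0.0201) and with no filter (0.89, adjusted p = 0.0417). Leaving out single libraries gave 0.70 to 0.96, and it passed without KO-SFD aorta 1 (0.86, adjusted p = 0.0321) or 3 (0.89, adjusted p = 0.0334). The number of members called there was accordingly 1 with DESeq2 and with no filter, and 0 to 1 without single libraries, where leaving out WT-SFD aorta 3 called Adcy7 instead (0.59, adjusted p = 0.0176). Over all genes, this comparison had 0 called in the reported fit, 666 with DESeq2, 347 with no filter, and 1907, 630 and 438 without WT-SFD aorta 3, KO-SFD aorta 1 or KO-SFD aorta 3. Without the marker-rich aortae, where 1 WT-SFD aorta is left, Adcy3 (0.29) and Adcy7 (-0.30) changed sign. In the kidney DESeq2 called 1 member for the mean of both diets, Adcy1 (-1.23). An exact permutation test of this difference was added after every KO kidney had been seen below every WT kidney, which fixes its p, and it is not used.

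Of the log2 fold changes of the members, 1982 values under the alternatives kept their direction and their side of the threshold, 6 passed it where the reported value did not and 2 changed sign. Of the values given without a test, those of Adcy1 for KO against WT in the aorta, 3 moved by more than the spread between replicates. For the tested values the size of the move was not counted, and some were large: without the marker-rich aortae Adcy1 for HFD against SFD in WT aortae was 1.30 in place of 0.86. The causes were not tested. No paired analysis was possible because the groups compared, always within an organ, share no mouse or replicate number in the labels, and the organs, which share 3 mice, were not compared. WT aortae held as few as 21 counts of Adcy1, and Adcy2 and Adcy8 were too low in the kidney to test. The 3 aortae per genotype on SFD, with 2 marker-rich ones in each, limit the diet comparisons.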
